A study of Homo sapiens with 8 samples.

Results

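HNMT, LRRFIP1, CD109, ERVMER34-1 and HDX are 5 genes whose array signal had all but disappeared in a line of human cells that expressed one of the related RNA-binding proteins TIA1 and TIAR. They were chosen by that reading itself, the processed signal and background mark of their probes across cells expressing GFP alone, HuR, TIA1 or TIAR. Of 20446 named genes and 50599 probes on the array, they account for 5 genes and 17 probes. The cells were FT293, HEK293 human embryonic kidney cells that carry a Flp-In T-REx site, into which a coding sequence under a tetracycline-inducible promoter is recombined. By this design all 4 lines had the same parent and the same insertion site. The inserted sequence was GFP alone, GFP-HuR, GFP-TIA1 or GFP-TIAR. Any other difference between the lines cannot be told apart from that of the insert. Total RNA was taken 3 days after tetracycline was added, and each line was measured on 2 one-colour arrays described as independent biological replicates. The title of the second TIA1 array says GFP-TIA1 whereas its source name says GFP-TIA2, and the title was followed. The lines are called GFP, HuR, TIA1 and TIAR below.

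TIA1 and TIAR bind U-rich stretches of RNA, take part in the choice of splice sites and repress translation, above all under stress. HuR binds similar AU-rich and U-rich sequences and is best known for stabilizing the messenger RNAs it binds. An array of RNA from a whole culture reads the steady-state level at the position of each probe, and fewer cells with a transcript cannot be told apart from less of it in each cell.

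The 5 genes have unrelated roles. HNMT is histamine N-methyltransferase, the enzyme that inactivates histamine inside cells. LRRFIP1 encodes a protein that binds double-stranded nucleic acids, represses transcription and takes part in sensing foreign nucleic acid. CD109 is a GPI-anchored surface protein of the alpha-2-macroglobulin family that binds TGF-beta and dampens its signalling. ERVMER34-1 is an envelope gene of an endogenous retrovirus that kept its open reading frame. HDX is a highly divergent homeobox gene on the X chromosome.

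The probes on which the losses rest are 60 bases long, and their first 30 bases are shown so that each reading can be tied to its transcript. Both LRRFIP1 probes below lie at the 5′ end of the gene, overlap by 22 bases and are rich in G and C (75% and 76.7% of their bases), whereas the other 3 probes hold between 35% and 38.3%.
HNMT A_23_P56734: ccttttgtccaccatggatatatctgactg
LRRFIP1 A_19_P00319682: cggcagctgcgggcgacgcggtcgatggac
LRRFIP1 A_19_P00810557: ccagggatcggggcgcaagcggctccccaa
CD109 A_23_P331928: atttcattcacgaatctcttattttgggaa
HDX A_23_P386364: tatgatacagtcttttggcttcgtaacagg

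Sequences upstream of the transcript starts were taken from RefSeq on GRCh38.p14, which held 5 windows for 4 of the genes and none for HDX. They are shown because 2 of the genes were low in the same line and because the LRRFIP1 loss was limited to probes at its 5′ end. Each run is the 250 bases before a start, read on the plus strand, with every CG dinucleotide in capitals. The first LRRFIP1 window is chr2:237627337-237627586 and the second, 64618 bases further along the gene, is chr2:237691955-237692204. The HNMT window is chr2:137964223-137964472 and the CD109 window is chr6:73695953-73696202.
LRRFIP1 first start: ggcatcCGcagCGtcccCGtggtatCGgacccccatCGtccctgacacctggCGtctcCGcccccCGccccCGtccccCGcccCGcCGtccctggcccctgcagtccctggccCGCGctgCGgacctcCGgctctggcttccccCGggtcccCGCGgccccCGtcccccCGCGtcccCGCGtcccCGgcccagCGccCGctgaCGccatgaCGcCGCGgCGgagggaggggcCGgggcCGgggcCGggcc
LRRFIP1 second start: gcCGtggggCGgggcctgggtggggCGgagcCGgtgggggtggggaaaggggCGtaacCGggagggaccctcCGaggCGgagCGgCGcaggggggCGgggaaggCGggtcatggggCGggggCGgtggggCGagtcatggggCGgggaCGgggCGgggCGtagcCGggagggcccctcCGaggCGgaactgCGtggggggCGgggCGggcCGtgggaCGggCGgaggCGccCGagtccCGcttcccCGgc
HNMT: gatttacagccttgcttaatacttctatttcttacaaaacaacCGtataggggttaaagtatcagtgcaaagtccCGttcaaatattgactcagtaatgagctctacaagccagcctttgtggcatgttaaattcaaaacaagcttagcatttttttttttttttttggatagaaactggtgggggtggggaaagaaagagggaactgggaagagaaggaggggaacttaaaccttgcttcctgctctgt
CD109: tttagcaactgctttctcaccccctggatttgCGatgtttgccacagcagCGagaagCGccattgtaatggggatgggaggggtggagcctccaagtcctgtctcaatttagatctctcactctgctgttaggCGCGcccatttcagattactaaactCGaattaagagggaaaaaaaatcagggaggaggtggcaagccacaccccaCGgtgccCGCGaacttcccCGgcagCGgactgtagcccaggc

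The windows of different genes differed in their number of CG dinucleotides, and other features of their sequences are not compared here. CG, which reads the same on both strands, occurred at least once in 93.9% of the 35116 RefSeq windows of this length, with a median of 11 per window. It occurred 35 times before the first LRRFIP1 start and 32 times before the second, more than in 94.2% and 90.48% of all windows. The HNMT window, although the gene was low in the same line as LRRFIP1, held 2, more than in 14.66% of windows. CD109 held 11 and ERVMER34-1 held 19, more than in 49.72% and 65.35% of windows. The ERVMER34-1 window, chr4:52751426-52751675 on the minus strand, is not printed.

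Signals are given as the log2 of the scanner's processed intensity minus the log2 of that array's 75th percentile, so that 0 is the 75th percentile and each unit is a doubling. The scanner software marks whether a probe is well above background on an array. Where it was not on both arrays of a line, the signal there is an upper bound and the fold is written as "at least", with the dim side set, array by array, to the lowest signal marked above background there or to the probe itself where that was higher. GFP 1 stood apart from the other 7 arrays. On it 86.03% of probes were well above background, against 53.22% to 58.51% elsewhere, and its mean local background intensity was 83.2, against 35.7 to 41.5. The differences of the 4 main probes from GFP are therefore also given without that array, and other differences from GFP include it unless stated. No spot was saturated. The HEK293 lineage markers NEFL, NEFM, INA, PAX2 and EYA1 were well above background, 5 of 5 on 7 arrays and 4 on GFP 2, and their summed linear level, relative to the 75th percentile, was 8.83 to 11.4 on the TIA arrays, 12.9 and 13.4 on the HuR arrays and 9.54 and 12.3 on the GFP arrays. Of 10 markers of blood, endothelium, liver and fibroblasts, between 4 and 9 were marked as above background, with sums of 3.99 to 4.45 on the TIA arrays, 3.23 and 3.35 on the HuR arrays and 2.97 and 4.98 on the GFP arrays. The part of cell makeup in the results below was not tested. The TIAL1 probe A_23_P161488, which reads the gene of TIAR, stood at 4.87 and 4.98 in TIAR and at 1.63 to 2.52 on the other arrays. The other TIAL1 probe, A_33_P3293869, read -4.12 and -3.85 there, within the -4.36 to -3.45 of the other arrays. The TIA1 probe A_24_P405430 was lower in TIA1 (-0.94 and -1.0) and TIAR (-1.77 and -1.36) than in GFP (-0.05 and 0.17), and ELAVL1, the gene of HuR, read 0.33 and 0.42 in HuR against 1.09 and 0.91 in GFP. Whether these probes lie within the inserted sequences is not given in the sources used here.

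HNMT was lost in TIA1 alone among the 4 lines. At its main probe, A_23_P56734 (NM_006895, hg19 chromosome 2 from 138771478 to 138771537, plus strand), the GFP arrays read -2.89 and -2.40, the HuR arrays -2.74 and -2.68 and the TIAR arrays -2.17 and -2.20. The TIA1 arrays read -7.53 and -7.15 and neither was well above background. Between the highest TIA1 array and the lowest of the other 6 lay 4.26 log2 units. The signal was at least 6.86-fold lower than in HuR, and TIAR stood at least 9.86-fold above TIA1. These folds describe the contrast on which the gene was chosen and carry no test.

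A second HNMT probe gave the same picture, and the remaining one gave none. A_24_P915806 (NM_001024074, 138722169 to 138724696), which spans a splice junction since its 60 bases extend over more than their own length in the genome, read -3.84 and -3.81 in HuR, -3.37 and -3.18 in TIAR and -6.48 and -5.28 in TIA1, where neither array was well above background. The difference was at least 3.17-fold against HuR. On the GFP arrays it read -0.18 and -3.65, so that GFP 1 lay far above its replicate. The last, A_33_P3347281 (NM_001024075, 138739135 to 138739194), was not well above background on any of the 8 arrays.

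LRRFIP1, the second gene lost in TIA1, was lost at its 5′ end and not over its whole length. Its 2 most upstream probes carry the accession NM_001137550. A_19_P00319682 (chromosome 2 from 238536264 to 238536323, plus strand) read -2.41 and -2.51 in GFP, -2.57 and -2.70 in HuR, -2.43 and -2.44 in TIAR and -7.90 and -7.36 in TIA1. A_19_P00810557 (238536302 to 238536361), the main probe, read -2.82 and -2.77 in GFP, -2.60 and -2.97 in HuR, -2.44 and -2.56 in TIAR and -5.86 and -6.71 in TIA1. At both probes the 6 arrays of the other lines lay close together, and neither TIA1 array was well above background. The bounds against HuR were at least 7.22-fold and at least 6.51-fold, and TIAR stood at least 8.30-fold and at least 7.92-fold above TIA1. Since these probes share 22 bases they are not independent readings.

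The next LRRFIP1 probe lies 136198 bases further downstream, and there the TIA1 line was measured on both arrays. A_33_P3358641 (238672559 to 238672618) read -1.28 and -1.27 in GFP, -1.41 and -1.09 in HuR, -1.66 and -2.13 in TIA1 and -1.56 and -1.56 in TIAR. A_33_P3358648 (238673547 to 238673606) read 1.35 and 1.69 in GFP, 1.81 and 1.80 in HuR, 1.51 and 1.30 in TIA1 and 1.54 and 1.48 in TIAR. Between TIA1 and GFP these probes differed by -0.61 and -0.11 on the log2 scale, and by -0.62 and -0.28 without GFP 1. A_33_P3374085 (238672724 to 238672783) read 0.13 and 0.12 in HuR, -0.64 and -0.35 in TIA1, -0.04 and -0.06 in TIAR, 2.04 on GFP 1 and 0.01 on GFP 2, so that GFP 1 again stood apart.

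The most downstream LRRFIP1 probe was lower in both TIA lines. A_24_P316939 (238688558 to 238688617), which carries the same accession as the 5′ pair, read 0.33 and -0.37 in GFP, -0.43 and -0.38 in HuR, -1.65 and -1.85 in TIA1 and -1.46 and -1.68 in TIAR. It was 2.55-fold lower in TIA1 and 2.25-fold lower in TIAR than in HuR, values that again come from the contrasts that chose the genes. Against GFP the differences were 3.32-fold and 2.93-fold. Hence the TIA1 line lacked signal at the 5′ end but was well above background at 3 probes in the middle. At these its mean was still the lowest of all lines, differing from HuR by -0.64, -0.62 and -0.39 on the log2 scale. At the last probe its signal was reduced, a reduction shared by TIAR.

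CD109, low in TIAR, was still measured there at its main probe. Its single probe, A_23_P331928 (NM_133493, chromosome 6 from 74537828 to 74537887, plus strand), read -0.67 and 0.06 in GFP, 0.48 and 0.58 in HuR, 0.33 and 0.28 in TIA1 and -4.62 and -4.81 in TIAR. It was well above background on all 8 arrays, and the TIAR arrays lay 3.95 log2 units below the lowest of the others. The means were 0.53 ± 0.07 in HuR, 0.31 ± 0.03 in TIA1, -0.31 ± 0.52 in GFP and -4.72 ± 0.14 in TIAR (SD, n = 2 each). The signal in TIAR was thus 38.0-fold lower than in HuR and 32.5-fold lower than in TIA1. With 1 probe, nothing can be said of other parts of the transcript.

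ERVMER34-1 had 6 probes, and they split by position in TIAR. The gene lies on the minus strand of chromosome 4, and the 3 probes at its 3′ end (NM_024534) were nearly or wholly lost. At the main probe, A_19_P00319407 (53609752 to 53609811), the GFP arrays read -0.76 and -0.74, the HuR arrays -2.01 and -2.03, the TIA1 arrays -1.76 and -1.79 and the TIAR arrays -5.83 and -5.80, of which neither was well above background. A_19_P00319398 (53609702 to 53609761) read -1.27 and -1.0 in GFP, -2.41 and -2.41 in HuR, -2.04 and -2.39 in TIA1 and -7.04 and -7.71 in TIAR, again below the mark. A_19_P00319409 (53609879 to 53609938) was still measured in TIAR, at -4.78 and -4.85, against -0.75 and -0.57 in GFP, -1.76 and -1.92 in HuR and -1.63 and -1.75 in TIA1. Relative to HuR these were at least 12.8-fold, at least 10.4-fold and 7.90-fold lower, and relative to TIA1 at least 15.1-fold, at least 11.9-fold and 8.77-fold. At all 3 probes the order of the measured lines was the same, with GFP highest and HuR and TIA1 close to each other. Endogenous retroviral sequence occurs in related copies, and how far these probes also read other copies was not tested.

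The 5′ probes of ERVMER34-1 (NM_001242690) showed no such loss. They lie at least 7751 bases upstream of the 3′ probes and wholly within the 250 bases before the current RefSeq start, on the sense strand, so they read transcripts that begin upstream of that start. A_19_P00322687 (53617730 to 53617789) read -1.08 and -1.51 in GFP, -0.95 and -0.85 in HuR, -2.17 and -1.64 in TIA1 and -2.0 and -1.59 in TIAR. A_19_P00320259 (53617689 to 53617748) read -2.66 and -2.87 in GFP, -2.38 and -2.43 in HuR, -3.45 and -3.25 in TIA1 and -3.55 and -3.35 in TIAR. Both TIA lines were below both HuR and GFP at these probes, and TIAR was not below TIA1 beyond the spread of the arrays. The TIAR versus GFP differences were -0.50 and -0.69, and -0.29 and -0.58 without GFP 1. The remaining 5′ probe, A_19_P00318425, was well above background on GFP 1 only. The 3 probes overlap by 19 to 46 bases.

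HDX did not match its description as a gene lost in one TIA line. Its probe, A_23_P386364 (NM_144657, chromosome X from 83576819 to 83576878, minus strand), read -3.88 and -3.91 in HuR. It read -7.92 and -7.29 in TIA1 and -8.17 and -7.74 in TIAR, and none of these 4 arrays was well above background. On GFP 1 it read -5.46, above background, and on GFP 2 it read -6.88, not above background. The gene was therefore well above background on both arrays of HuR alone, which exceeded TIAR at least 3.72-fold and TIA1 at least 3.02-fold. The values of the 2 TIA lines lie below the mark and have no order. Since GFP was marked above background on 1 of its 2 arrays, no fold is given against it.

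**Figure D1:**
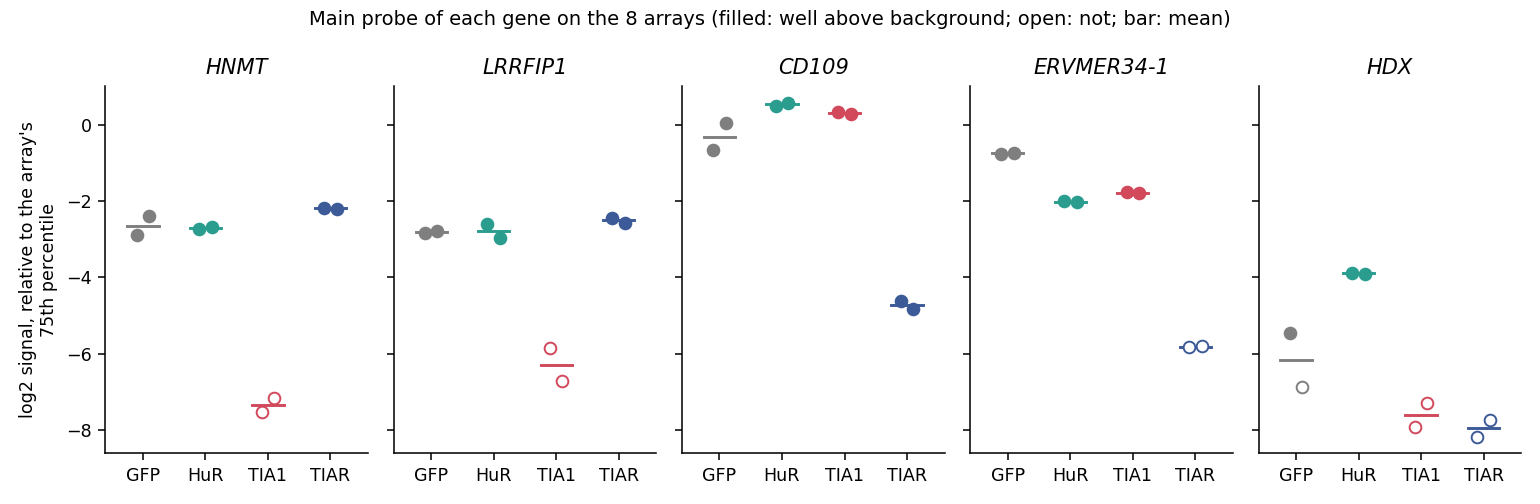
Signal of the main probe of each of the 5 genes on every array, as log2 intensity relative to the array's 75th percentile (vertical axis), for the 2 arrays of GFP, HuR, TIA1 and TIAR; open symbols mark arrays on which the probe was not well above background. HNMT and LRRFIP1 drop in TIA1 and CD109 and ERVMER34-1 in TIAR, while HDX is measured on both arrays of HuR alone.

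**Figure D2:**
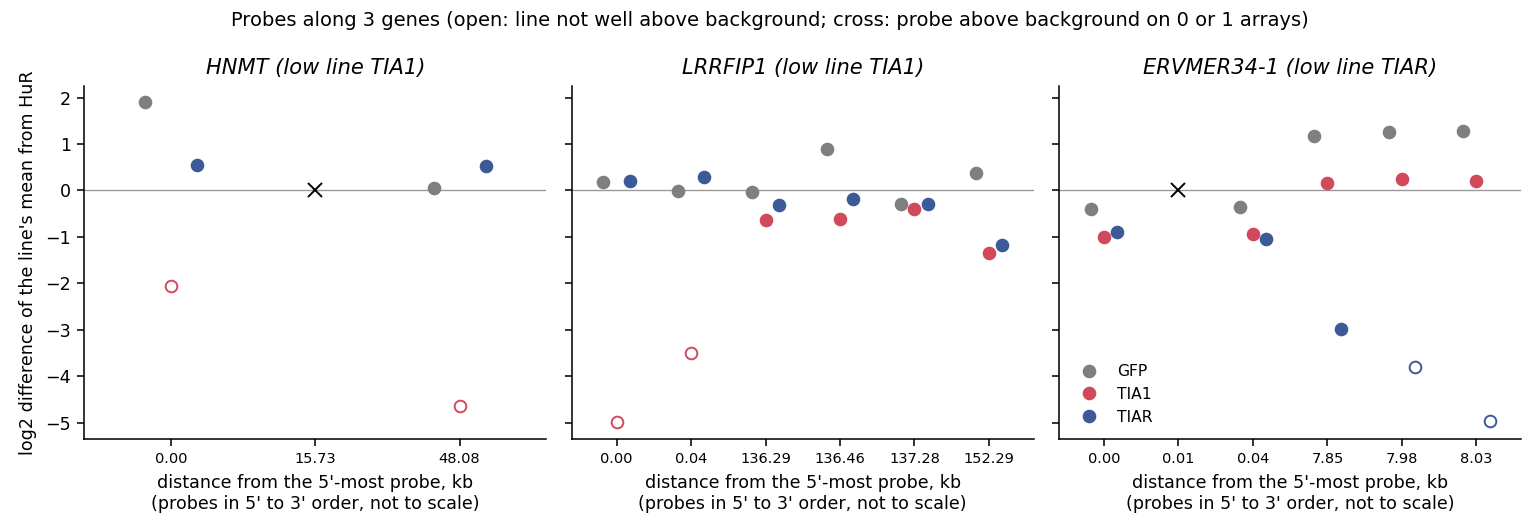
Difference of the GFP, TIA1 and TIAR means from the HuR mean (log2, vertical axis) at each probe of the genes, in 5′ to 3′ order along the gene (horizontal axis); open symbols mark a line that was not well above background, and crosses mark probes above background on 0 or 1 arrays. TIA1 falls at the 5′ pair of LRRFIP1 probes and far less at the next 3 (-0.64, -0.62 and -0.39). TIAR falls at the 3′ probes of ERVMER34-1 but not to that extent at its 5′ probes.

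The genes were chosen on signals read across all 4 lines, so their differences from GFP are given as a description too, without a test. HNMT was at least 7.17-fold and LRRFIP1 at least 6.45-fold lower in TIA1 than in GFP. ERVMER34-1 was at least 30.8-fold and CD109 21.2-fold lower in TIAR (log2 difference -4.41, SE 0.33). In each case both arrays of the low line lay below both GFP arrays. Over the whole array limma called 0 of these 4 genes and 0 of all others: 0% of 15310 genes were called lower in TIA1 versus GFP, 0% of 15489 in TIAR versus GFP and 0% of 15506 in HuR versus GFP. At an unadjusted p under 0.05 there were 3345, 2557 and 2668 genes in these comparisons.

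Without GFP 1 the sizes moved little. Against GFP 2 alone HNMT was at least 8.50-fold and LRRFIP1 at least 6.56-fold lower in TIA1, ERVMER34-1 was at least 31.0-fold lower in TIAR, and CD109 differed by -4.77 (SE 0.18). A fit with GFP 2 alone holds no spread between GFP arrays, so calls of these genes from it are not given. The last LRRFIP1 probe differed by -1.38 between TIA1 and GFP 2. The second HNMT probe, at least 11.9-fold lower than GFP with GFP 1 included, rested on the high reading of that array. Without it the means differed by -2.23, which is not a measured size because neither TIA1 array was well above background.

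ERVMER34-1 was also 2.40-fold lower in HuR and 2.03-fold lower in TIA1 than in GFP. Under normexp background correction, quantile normalization and the authors' own values the low line stayed below all 6 other arrays for HNMT, LRRFIP1, CD109 and ERVMER34-1. These genes were chosen for that order, and the share of all genes with it was not counted. The bounds depend on how the background is treated. Against GFP they became at least 2.54-fold and 2.20-fold for HNMT, at least 2.39-fold and 1.98-fold for LRRFIP1 and at least 9.20-fold and 9.68-fold for ERVMER34-1 with normexp and with the authors' values. The CD109 difference became -2.96 and -2.91. With quantile normalization the HNMT and LRRFIP1 bounds were at least 3.14-fold and 2.92-fold.

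Genes beside the 5 were examined to see how far along the chromosome each loss extended. Of 51 named genes with a probe within 1000 kb, 37 were tested in the low line versus HuR, and 2 were called lower and 2 higher, at a fold of 2 or more and an adjusted p under 0.05. Over all genes 4.85% were called lower and 7.89% higher in TIA1 versus HuR, and 2.93% lower and 7.01% higher in TIAR versus HuR. The median log2 difference of the tested neighbours was 0.41 beside LRRFIP1 in TIA1 versus HuR, against 0.05 over all genes. In TIAR versus HuR it was -0.16 beside CD109, -0.21 beside ERVMER34-1 and -0.22 beside HDX, against 0.04 over all genes. Within 250 kb, 1 of 9 was called lower. Against GFP 0 of 38 neighbours were called by limma. The neighbours of CD109 (7 tested), HDX (4 tested) and HNMT (1 tested, SPOPL) held no call in either direction. NXPH2, a neuronal glycoprotein gene at 657.06 kb from HNMT that was not tested against HuR, differed by -2.73 between TIA1 and GFP (SE 0.36, limma adjusted p = 0.101). That value includes GFP 1, and since the TIA1 signal may lie below the mark, its size is uncertain. MTO1 near CD109 differed by -0.99 between TIAR and HuR (limma adjusted p = 0.0226), short of the fold of 2. MB21D1, also near CD109, differed by 0.77 in the other direction (limma adjusted p = 0.0109). SLC17A5, the nearest tested neighbour of CD109 at -192.7 kb, differed by 0.34. Around ERVMER34-1, the small nucleolar RNA host SNHG13 at -30.04 kb and the deubiquitinase gene USP46 at -147.59 kb, where negative distances run toward lower coordinates, had differences of -0.63 (limma adjusted p = 0.045) and -0.62 (limma adjusted p = 0.0251). SNORA26 and SCFD2 had -0.84 (limma adjusted p = 0.0354) and -0.85 (limma adjusted p = 0.0128). All 4 fell short of the fold of 2. SPATA18 went the other way, by 0.47 (limma adjusted p = 0.0406), and RASL11B, at 123.09 kb, differed by -0.07. Between TIAR and GFP, SNHG13 and USP46 went the other way, by 0.42 and 0.72, whereas SNORA26 and SCFD2 differed by -0.82 and -0.78. LRRC66 at -749.86 kb was 2.38-fold higher in TIAR than in HuR (limma adjusted p = 0.0059) and also 2.18-fold higher in TIA1 (limma adjusted p = 0.0104).

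The calls in TIAR versus HuR, here and in the lists of related genes, depend on both HuR arrays, since 0 of all genes were called by limma without HuR 1 and 320 without HuR 2, against 1554 with both. Those in TIAR versus TIA1 number 359 in all, between 0 and 13 when any 1 array is left out, and 0 by limma with the replicate number as a block or with no filter on dim probes.

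Both neighbours that fell lay beside LRRFIP1. RAB17, which encodes a Rab GTPase of epithelial membrane traffic and whose probe lies at -51.34 kb from the LRRFIP1 main probe, read -1.81 and -2.34 in GFP, -4.14 and -4.23 in HuR, -7.49 and -6.51 in TIA1 and -1.52 and -1.48 in TIAR. The TIA1 arrays were not well above background and lay at least 2.46-fold below HuR (limma adjusted p = 0.0075). TIAR, in contrast, was 6.42-fold above HuR (limma adjusted p = 0.0036). RAB17 was thus off in TIA1 like the 5′ end of LRRFIP1, but unlike it was also lower in HuR than in TIAR. A second RAB17 probe was not above background in HuR either. SCLY, the selenocysteine lyase gene 463.57 kb downstream, was 2.27-fold lower in TIA1 than in HuR (limma adjusted p = 0.0032) and 1.90-fold lower in TIAR. Its other probe was 3.47-fold lower in TIA1 (limma adjusted p = 0.0026) and 2.84-fold lower in TIAR (limma adjusted p = 0.0058). ESPNL, at 504.55 kb, was 2.99-fold higher in TIA1 (limma adjusted p = 0.0041) and 2.68-fold higher in TIAR (limma adjusted p = 0.0056). The differences of SCLY and ESPNL from HuR were thus shared by both TIA lines. PRLH and MLPH, at -60.6 and -72.5 kb, were not called and differed by 0.56 and 0.87 between TIA1 and HuR.

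**Figure D3:**
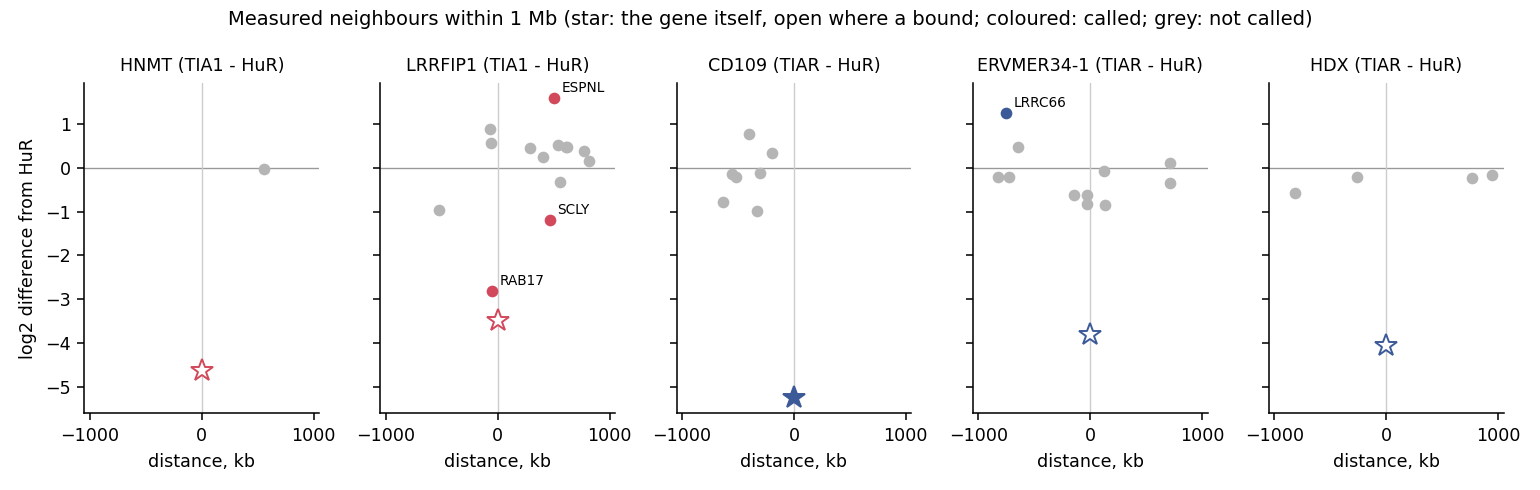
Log2 difference between the low line and HuR (vertical axis) of every tested neighbour within 1000 kb of the 5 genes, against its distance in kb from the gene's main probe (horizontal axis); stars are the genes themselves, open where the low line was not well above background, coloured points are called neighbours and grey points are not called. RAB17, also not well above background in TIA1, and the open stars are drawn at the difference of the measured means. Called neighbours are RAB17 and SCLY (lower) and ESPNL (higher) beside LRRFIP1 and LRRC66 (higher) near ERVMER34-1, while HNMT had 1 tested neighbour.

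A signal off in 1 line and present in the other 3 was found for each of the 4 lines. Counting probes that were well above background on all 6 arrays of 3 lines and on neither array of the remaining line, 114 probes (62 named genes) were off only in TIA1, 21 (12 genes) only in TIAR, 73 (43 genes) only in HuR and 64 (36 genes) only in GFP. By comparison 24959 probes were well above background on all 8 arrays. Without GFP 1 the counts were 117, 21, 73 and 653, so the GFP count depends on that array. Taking those off in TIA1 or TIAR by their signal on the other 6 arrays, the first 5 genes were HIST1H4K, ERVMER34-1, LRRFIP1, HNMT and RAB17. HIST1H4K, a histone H4 gene, read -0.71 and -0.15 in GFP, -1.26 and -1.65 in HuR, -1.54 and -1.02 in TIA1 and -6.68 and -6.05 in TIAR, where it was at least 20.1-fold below HuR, a value that restates how it was picked. Its other probe was not called, and since histone H4 genes are nearly identical in sequence the gene's identity is uncertain. Larger bounds were reached by genes off only in HuR, at least 121-fold for MFAP2 and at least 81.5-fold for ZNF22.

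**Figure D4:**
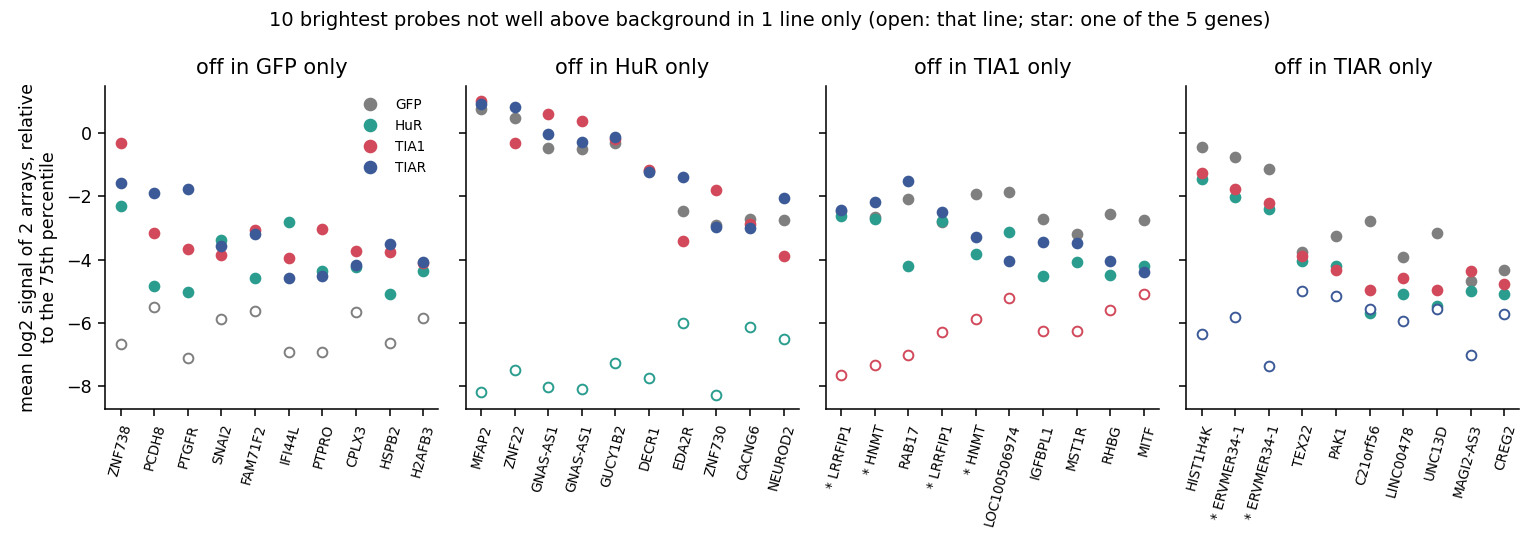
Mean log2 signal of the 2 arrays of each line, relative to the 75th percentile (vertical axis), of the 10 probes (horizontal axis, by gene) with the highest signal elsewhere among those off in GFP, HuR, TIA1 or TIAR only (1 panel each); the open symbol is the line in which the probe was not well above background, and a star before a name marks one of the 5 genes. The TIA1 panel holds 2 probes each of LRRFIP1 and HNMT and the TIAR panel 2 of ERVMER34-1.

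Each gene was also set beside the 15756 genes whose pattern over the 8 arrays could be correlated with it. These correlations describe 8 arrays from 4 lines, so that a gene with a gap in 1 line resembles every other gene with a gap in that line, and they carry no p-value. HNMT was most like EOMES, OVOL2 and CEBPE, and LRRFIP1 most like PABPC4L, CR2 and CEBPE, all with Pearson's r of 0.99. CEBPE, a transcription factor gene of granulocytes, read 5.73 and 6.05 in GFP, 6.57 and 6.47 in HuR, 5.84 and 6.11 in TIAR and -4.92 and -5.41 in TIA1. It thus shared the gap in TIA1 from a far brighter signal in the other lines. CD109 was most like EEF2K and UCHL3 (both 0.99) and PPP1CB (0.98), and ERVMER34-1 most like CUL4A, SLAIN1 and HIST1H4J (all 0.99). HDX was most like UST (0.98), SNORA70G (0.97) and TFAP4 (0.97). Among these genes 3, UCHL3, CUL4A and SLAIN1, lie on chromosome 13, and all 3 resembled a gene lost in TIAR.

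The lists of genes related to each member were short, so their shares of calls are imprecise. Around HNMT, 14 genes of histamine synthesis, breakdown, transport and reception were on the array, and of the 8 tested in TIA1 versus HuR 0 were called in either direction, with a median log2 difference of 0.03 against 0.05 over all genes. Of 7 tested small-molecule methyltransferases, the enzymes most like HNMT in their reaction, 0 were called in TIA1 versus HuR. Of all genes, 4.85% were called lower and 7.89% higher in that comparison, and 2.93% were called lower in TIAR versus HuR. TPMT, thiopurine methyltransferase, was 2.45-fold lower in TIAR than in HuR (limma adjusted p = 0.0211).

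The 16 genes that act with LRRFIP1 or sense nucleic acids were all tested, and 2 were called higher and 0 lower in TIA1 versus HuR, where 7.89% of all genes were higher and 4.85% lower, with a median of 0.17. MYD88, the adaptor of most Toll-like receptors, was 8.91-fold higher in TIA1 (limma adjusted p = 0.0018) and 9.97-fold higher in TIAR (limma adjusted p = 0.0036). This gene was low in HuR and close together in the other 3 lines. MB21D1, the cytosolic DNA sensor cGAS, was at least 2.90-fold higher in TIA1 than in HuR (limma adjusted p = 0.0069). It is also one of the neighbours of CD109.

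For CD109, 14 of 16 TGF-beta ligands, receptors and SMADs were tested in TIAR versus HuR, and 0 were called in either direction (median 0.12, against 0.04 over all genes). Of all genes, 2.93% were called lower and 7.01% higher there. In TIAR versus TIA1, where 0.99% of all genes were called lower and 1.35% higher, 1 of 14 was lower, the inhibitory SMAD6, by 2.34-fold (limma adjusted p = 0.025), a call lost with the replicate block. SMAD6 was also the 1 gene of the list called higher in TIA1 versus HuR. Only 2 of 8 alpha-2-macroglobulin family genes were tested beside CD109, and CPAMD8 was 2.63-fold higher in TIAR (limma adjusted p = 0.0065) and 3.19-fold higher in TIA1 than in HuR. In TIA1 versus HuR 7.89% of all genes were called higher.

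For ERVMER34-1, 3 of 8 other genes of endogenous retroviral and retrotransposon origin were tested. PEG10, an imprinted gene derived from a retrotransposon, was 2.40-fold lower in TIAR than in HuR (limma adjusted p = 0.0068). It was 2.04-fold lower than in TIA1 (limma adjusted p = 0.0469), a call lost with the replicate block. Of all genes, 2.93% were called lower in TIAR versus HuR and 0.99% in TIAR versus TIA1. For HDX, 3 of 5 homeobox genes of the X chromosome were tested, and limma called 0 of them in either TIA line versus HuR, with medians of -0.03 in TIA1 and -0.58 in TIAR. Of 18 divergent and zinc finger homeobox genes, 3 were lower and 1 higher in TIA1 versus HuR and 2 lower and 2 higher in TIAR versus HuR. Over all genes 4.85% were lower and 7.89% higher in TIA1 and 2.93% and 7.01% in TIAR. HOMEZ was 6.98-fold lower in TIA1 (limma adjusted p = 0.0023) and 2.44-fold lower in TIAR (limma adjusted p = 0.0139). NANOG, the pluripotency factor, was at least 2.51-fold (limma adjusted p = 0.0022) and at least 3.09-fold lower (limma adjusted p = 0.0079). ADNP was higher in both, by 1.16 (limma adjusted p = 0.0034) and 1.47 (limma adjusted p = 0.0057) on the log2 scale. Against GFP 0 genes of any of these lists were called by limma.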

How the data were processed

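The deposited scanner tables hold intensity values that the authors obtained with Agilent Feature Extraction 10.7.3.1, with the background subtracted on each array and no normalization across arrays, and with probe positions on hg19. The authors' own log2 values, deposited for the whole series, were used as an alternative.

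Control and outlier spots were left out, processed signals were put on the log2 scale, the array's 75th percentile was subtracted and repeated spots were averaged. A probe was tested where both arrays of at least 1 compared line were marked well above background, in R 4.3.3 with limma 3.58.1 (lmFit, eBayes), on the 4 arrays of each comparison. Calls needed a fold of 2 and a Benjamini-Hochberg adjusted p under 0.05 over all tested probes. Counts of genes use the brightest tested probe of each. Limma was also tested on simulated data. A gene's main probe is the one the study lists, and otherwise the brightest tested one.

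The members and lists were chosen with earlier results of these data known. Named are the 5 genes, called neighbours and some of the neighbours not called, and the called genes of the related lists. The 3 genes most alike and the 5 genes with the highest signal elsewhere among those off in a TIA line are also named. Some genes of the related and marker lists are not reported here, and the lists are counted without them. MFAP2 and ZNF22 were named after their values were seen. All 17 probe accessions were found in RefSeq for their gene. As no genome was used, no probe was placed in an exon or untranslated region. With 2 arrays per line, all on 1 slide, the number of arrays limits the precision. The alternatives were normexp (offset 50), quantile normalization, the authors' values, no filter on dim probes, all 8 arrays in one fit, the replicate number as a block, the methods' paired t-test, leaving out each array, other probes of a gene and a distance of 250 kb. Python 3.11.15, pandas 2.3.3, numpy 2.4.6 and matplotlib 3.10.9 were also used.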

Additional observations from a re-analysis of the deposited data

How the results depend on the processing

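The number of calls moved with the setting in every comparison. TIA1 versus HuR called 1976 genes, 1312 with normexp, 1055 with the authors' values, 1092 by the methods' paired t-test unadjusted and 0 after Benjamini-Hochberg. Leaving out each array in turn gave 1264 to 2208. TIAR versus HuR called 1554 genes, 994 with normexp, 792 with the authors' values, 745 by the paired test and 0 after Benjamini-Hochberg. Leaving out each array gave 0 (without HuR 1) to 1890, with 320 without HuR 2. TIAR versus TIA1 called 359 genes, 178 with normexp, 164 with the authors' values, 0 without the filter on dim probes, 202 with all 8 arrays in one fit, 232 by the paired test and 0 after Benjamini-Hochberg. Leaving out each array gave 0 to 13.

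Against GFP 0 genes were called in each comparison by limma. TIA1 versus GFP gave 2 with normexp, 1 with the authors' values, 1320 with all 8 arrays in one fit, 381 by the paired test unadjusted, and 0 to 6101 when an array was left out (1624 without GFP 1, 6101 without GFP 2). TIAR versus GFP gave 914 with all 8 arrays, 290 by the paired test, and 0 to 5466 (887 without GFP 1, 5466 without GFP 2). HuR versus GFP gave 4 with normexp, 637 with all 8 arrays, 237 by the paired test, and 0 to 6277 (1150 without GFP 1, 6277 without GFP 2). The cause was not tested. Quantile normalization moved the median of all genes in TIAR versus GFP from 0.03 to 0.15.

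At their main probes the 4 genes lay below GFP under every alternative run, a direction that their choice fixes. With all 8 arrays in one fit the values were at least 7.17-fold for HNMT, at least 6.45-fold for LRRFIP1, -4.41 for CD109 and at least 30.8-fold for ERVMER34-1. Calls of these genes under the alternatives are not given, since the genes were chosen on these signals. Leaving out each array gave bounds of 5.81 to 8.85 for HNMT, 5.23 to 7.96 for LRRFIP1 and 28.0 to 33.8 for ERVMER34-1, and differences of -4.77 to -4.04 for CD109. Neighbours called lower numbered 2, 1 within 250 kb, 1 with the authors' values, 2 with quantile normalization and 3 both with normexp and with no filter on dim probes.

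The replicate numbers did not pair the arrays: same-numbered deviations correlated with r from -0.06 to 0.17 over 27143 probes. With the replicate number as a block TIA1 versus HuR called 1994 genes, TIAR versus HuR 1544 and TIAR versus TIA1 0, and the comparisons with GFP 0 by limma.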

Other observations

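Because 3 of the genes that resembled CD109 and ERVMER34-1 lie on chromosome 13, the calls were counted by chromosome, a view chosen after seeing the data. In TIAR versus HuR 32 of 285 tested genes of chromosome 13 were called lower by limma, 11.2%, with a median log2 difference of -0.24, and in TIAR versus TIA1 34 of 282, 12.1%, with a median of -0.37. In TIAR versus GFP 0 of 287 were called, and their median was -0.47. In each of these comparisons chromosome 13 had the lowest median of any chromosome. Other chromosomes differed between lines too. Chromosome 20 had a median of 0.52 in both TIA1 versus HuR and TIAR versus HuR, the highest of any, but of 0.04 in TIAR versus GFP. On chromosome 21, 12 of 177 genes (6.78%) were called lower in TIAR versus TIA1. In TIA1 versus HuR 11 of 285 were lower, 3.86%, and the median was 0.20. The chromosomes of CD109 and ERVMER34-1 had 46 of 854 (5.39%) and 20 of 547 (3.66%) genes called lower in TIAR versus HuR.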
